A study of Mus musculus with 2 samples.

Results

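The 5 C/EBP genes Cebpa, Cebpb, Cebpd, Cebpe and Cebpg and 3 further transcription factor genes of the myeloid lineage, Irf8, Gfi1 and Klf4, were located in Hi-C loop and domain lists of a mouse blood progenitor line. Hi-C joins and sequences pieces of DNA that were near each other in the fixed nucleus, and a loop is a pair of short intervals, the anchors, that were called as contacting each other. The 8 genes were chosen by name among 21521 protein-coding genes, and their loops were collected by position: a loop belonged to a gene when an anchor overlapped the gene or lay within 25 kb of it, or when the gene lay inside the loop's span. Both samples came from HPC5, a bone marrow derived haematopoietic progenitor cell line that is wild type for Etv6 (Etv6+/+), and form 1 group with 2 replicates. No mutant or treated sample is among them, so the comparisons are between the replicates and between these genes and all others. The labels do not say whether the replicates were separate cultures, and the lists hold no expression values, so the cell type could not be checked against marker genes.

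C/EBP proteins are basic leucine zipper factors that bind DNA as dimers with one another. C/EBP alpha directs progenitors towards granulocytes and monocytes, C/EBP epsilon acts later in granulocyte maturation, and C/EBP beta and delta are known for their induction in inflammation and emergency granulopoiesis. C/EBP gamma lacks the activation domain of its relatives and often acts as their partner or inhibitor. IRF8 favours monocytes and dendritic cells, GFI1 is a zinc finger repressor that favours granulocytes, and KLF4 is a zinc finger factor of monocytes. Several of these genes are known to be controlled by enhancers some distance away, which is why their loops are of interest.

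The authors deposited a longer loop list (medium setting) and a shorter one (high setting) for each replicate, and 1 domain list. The high list was the medium list without its loops on 25 kb anchors. It held 202 loops on 10 kb anchors in replicate 1, and 986 on 5 kb and 2368 on 10 kb anchors in replicate 2. Being in the high list therefore says only that a loop's anchors were 5 or 10 kb wide. Replicate 1 listed 1276 medium-setting loops and replicate 2 listed 5729, so a gene had fewer listed loops to meet in replicate 1. The sequencing depth is not given in the lists, and a gene without a loop is only a gene at which none was called. A loop was called matched when the other replicate had one whose left and right anchor midpoints were each at most 20 kb away. By this measure 80.6% of all replicate 1 loops and 18.2% of all replicate 2 loops were matched.

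Of the 8 genes 7 had an anchor within 25 kb in at least 1 replicate, against 49.9% of all protein-coding genes. These were the 5 C/EBP genes, Irf8 and Klf4. Cebpa and Cebpg are neighbours, and the only loop with an anchor within 25 kb of Cebpa also counted for Cebpg, so they are not separate cases. At 5 genes, Cebpb, Cebpd, Cebpe, Cebpg and Irf8, the loop was matched between the replicates, against 13.7% of all protein-coding genes. Gfi1 was the 1 gene with no loop at it or over it, a state it shared with 41.3% of protein-coding genes. The 8 genes are short, with a median length of 3.99 kb against 17.4 kb for all protein-coding genes, and a longer gene has more room to meet an anchor. Among genes of at most 25 kb the shares were lower, at 42.7% for any loop and 10.3% for a matched loop. The 8 genes were chosen by name and are few, so these shares are given as a description without a test.

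**Figure D1:**
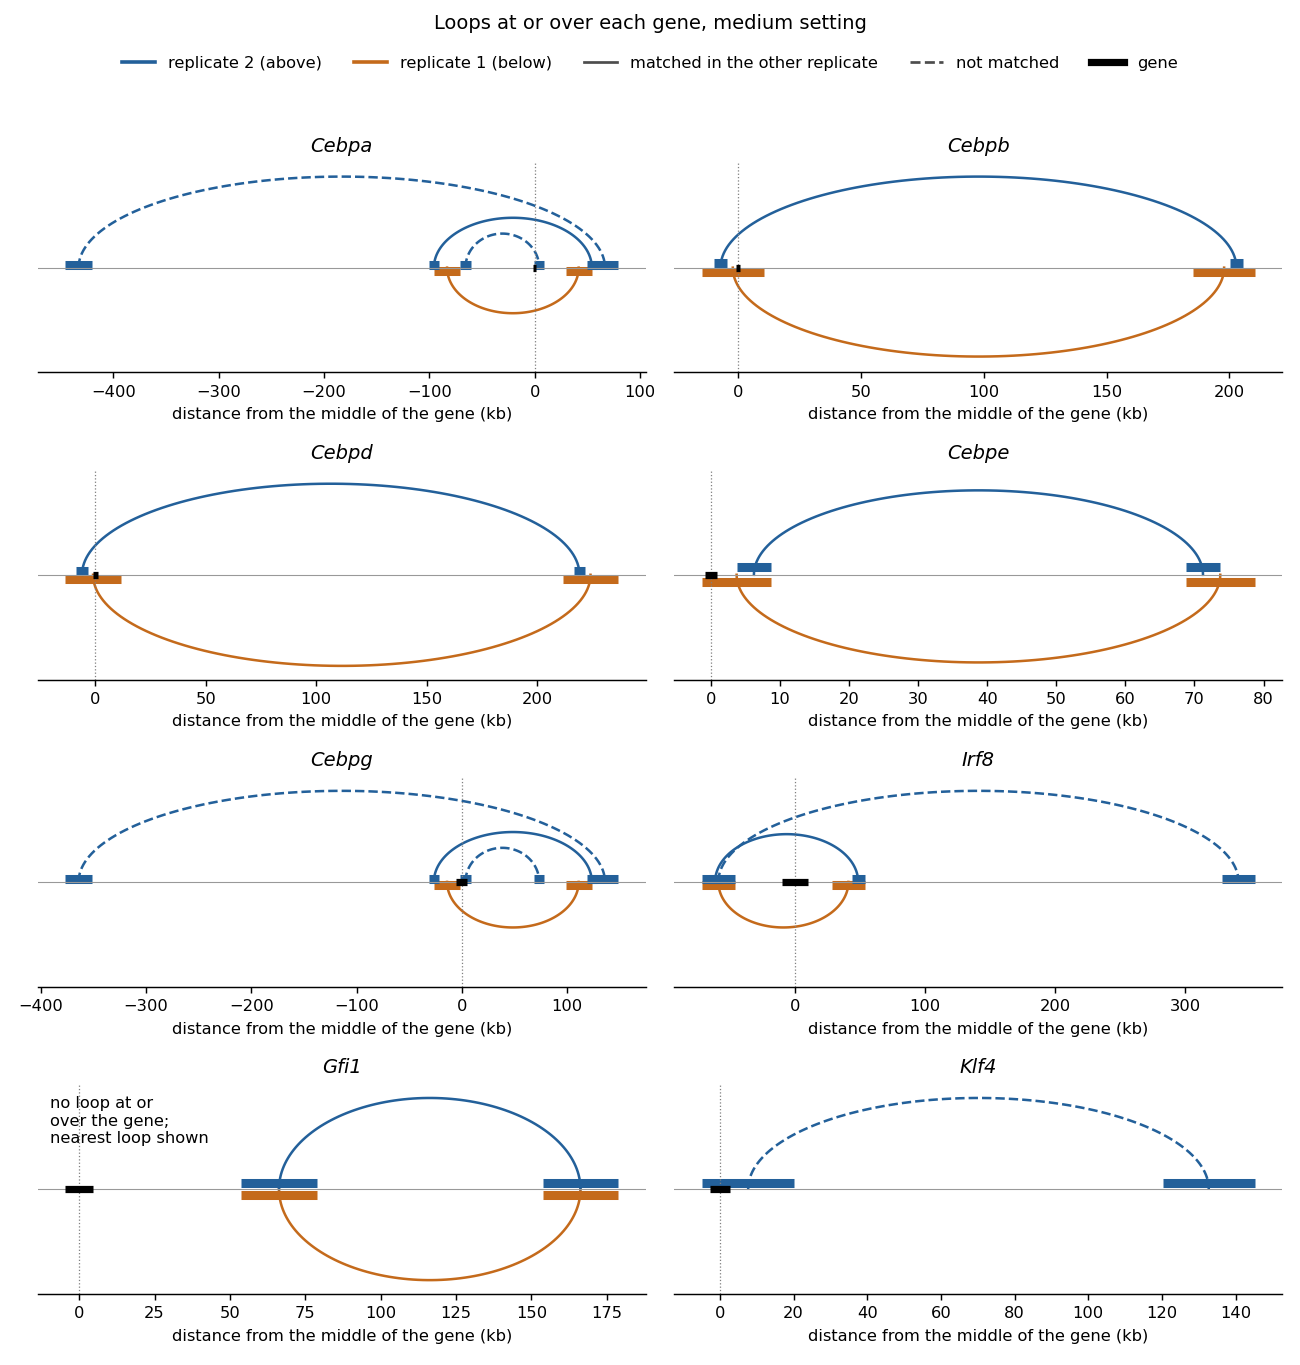
Medium-setting loops at or over each gene, drawn as arcs between anchor midpoints against distance from the middle of the gene in kb (higher coordinates to the right; each panel has its own scale and arc height carries no value). Replicate 2 is above the line and replicate 1 below, bars are the anchors, solid arcs were matched between replicates, and Gfi1 is shown with its nearest loop, 49.2 kb away.

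Counted by replicate, 5 of the 8 genes had an anchor within 25 kb in replicate 1, against 16.5% of all genes, and 6 did in replicate 2, against 48.8%. The 4 genes with one in both replicates were Cebpb, Cebpd, Cebpe and Cebpg, against 15.3% of all genes. An anchor overlapped the gene body itself at 6 genes, against 30.0%, which left out Irf8 and Gfi1. This was so for 4 genes in replicate 1, against 9.33%, and for 3 in replicate 2, against 28.1%. Only Cebpg was among both sets, since the narrow replicate 2 anchors at Cebpb, Cebpd and Cebpe lay 2.29 to 3.92 kb from the gene body.

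The genes also lay inside loops. In all 7 genes were within the span of a loop in at least 1 replicate, against 35.0% of protein-coding genes, and again Gfi1 was the exception. Cebpa and Cebpg were each counted though the loops of 125, 150 and 500 kb enclosed both. The count was 6 in replicate 1, against 9.28%, and 6 in replicate 2, against 34.0%. Klf4 was missing in replicate 1 and Cebpe in replicate 2, where the anchor began just to the right of Cebpe. Under the high setting 5 genes had an anchor within 25 kb, against 33.0% of all genes, and all 5 were C/EBP genes. Irf8 and Klf4 dropped out because their loops with an anchor within 25 kb were on 25 kb anchors, which the high lists lack.

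In replicate 1, 5 distinct loops had an anchor within 25 kb of one of the genes. All 5 were matched in replicate 2, against 80.6% of all replicate 1 loops, so for 5 loops this is near the background. In replicate 2 there were 6 such loops, of which 4 were matched, against 18.2% of all replicate 2 loops. Adding loops that only spanned a gene left 5 in replicate 1 and brought 9 in replicate 2. Protein-coding gene ends lay in both anchors of 1 loop in each replicate, against 21.5% of all replicate 1 loops and 15.2% of all replicate 2 loops. The anchor farther from the gene held no protein-coding gene end in 4 of the 5 replicate 1 loops and in 4 of the 6 replicate 2 loops. Over all loops 56.2% of the anchors in replicate 1 and 65.1% in replicate 2 held none. These shares pool both anchors of every loop, while the counts are of far anchors only, so they are a rough guide. By that guide the replicate 2 count is close to the background, and the replicate 1 count rests on 5 loops.

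The promoters of 4 genes are shown, as examples of those that loop anchors covered or adjoined. Replicate 1 anchors also covered the bodies of Cebpd and Cebpe, whose promoters are not shown. The 25 kb anchor of replicate 1 covered the Cebpb promoter, and replicate 2 anchors covered the promoters of Cebpg and Klf4. The Cebpa promoter lay just outside the replicate 2 anchor that held most of its gene and was joined to Cebpg. Each sequence is the 250 bases before the RefSeq transcription start (build GRCm38.p6), 5′ to 3′ on the strand of the gene. Capitals mark matches on either strand to a CTCF-like motif (CCA and AG with any 2 bases between them, then any base and GGGC), a C/EBP-like motif (TTGCNNAA), the TATA box (TATAAA) and the CCAAT box (CCAAT, which reads ATTGG on the other strand).
Cebpa, chr7:35119043-35119292, plus strand: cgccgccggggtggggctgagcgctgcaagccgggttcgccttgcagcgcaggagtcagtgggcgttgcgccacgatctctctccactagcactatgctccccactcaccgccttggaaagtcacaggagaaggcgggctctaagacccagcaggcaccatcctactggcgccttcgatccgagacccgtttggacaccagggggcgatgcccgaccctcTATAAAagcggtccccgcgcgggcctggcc
Cebpb, chr2:167688665-167688914, plus strand: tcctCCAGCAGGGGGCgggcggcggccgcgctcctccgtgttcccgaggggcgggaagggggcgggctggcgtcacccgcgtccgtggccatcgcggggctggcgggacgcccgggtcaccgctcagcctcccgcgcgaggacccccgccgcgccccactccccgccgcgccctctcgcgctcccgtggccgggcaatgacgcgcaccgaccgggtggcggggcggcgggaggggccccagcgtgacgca
Cebpg, chr7:35056567-35056816, minus strand: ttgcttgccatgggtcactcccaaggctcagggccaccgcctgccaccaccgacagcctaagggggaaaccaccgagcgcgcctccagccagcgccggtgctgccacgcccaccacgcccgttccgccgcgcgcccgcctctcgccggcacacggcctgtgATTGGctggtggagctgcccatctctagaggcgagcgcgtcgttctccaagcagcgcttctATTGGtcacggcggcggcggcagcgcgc
Klf4, chr4:55532476-55532725, minus strand: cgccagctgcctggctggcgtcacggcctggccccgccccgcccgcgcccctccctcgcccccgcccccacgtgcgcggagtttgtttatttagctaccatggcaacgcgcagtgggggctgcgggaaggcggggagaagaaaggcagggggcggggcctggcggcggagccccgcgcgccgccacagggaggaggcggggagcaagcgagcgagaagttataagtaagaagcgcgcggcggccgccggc

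CTCF is the DNA-binding protein at many loop anchors, and its motif was included for that reason. All the motifs were chosen after the promoters had been seen, so each match and its background share are a description. The Cebpb promoter held the match CCAGCAGGGGGC from 246 to 235 bases before the start, a motif found in 0.944% of 32851 RefSeq promoters cut to the same length. It overlapped by 4 bases with 1 of 5 GC boxes (GGGCGG) in that promoter. Cebpa had a TATA box from 30 to 25 bases before its start, a motif in 12.4% of promoters, and Cebpg had 2 CCAAT boxes, a motif in 33.8%. The Klf4 promoter held none of the 4 marked motifs and 4 GC boxes, which 32.7% of promoters have at least once. None of the 4 sequences held the C/EBP-like motif exactly, and it was present in 9.56% of promoters. The Gfi1 promoter, not printed because no anchor lay near it, held it once, from 143 to 136 bases before the start. The Irf8 promoter, also without an anchor over it, held a TATA box and a CCAAT box. The G and C content was 66.4% for Cebpa, 81.6% for Cebpb, 70.8% for Cebpg and 74.0% for Klf4, against a median of 52.4% over all promoters. A match describes these letters only and does not show that a factor binds there. Only exact matches were marked, so near matches were left in small letters, and they were not counted over all promoters. In the Cebpa promoter these include acaccagggggc for the CTCF-like motif and ttgcgcca for the C/EBP-like motif.

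Cebpa and Cebpg are neighbours on chromosome 7 and shared their loops. Cebpg occupies 35046422 to 35056566 and Cebpa 35119293 to 35121928. A replicate 2 loop of 70 kb joined the genes to each other, from 35050001 to 35059999, which held an end of Cebpg and of the predicted gene Gm45095, to 35120001 to 35129999, which held the right end of Cebpa. This loop was on 10 kb anchors, was in the high-setting list and had no match in replicate 1. It was the only loop with an anchor within 25 kb of Cebpa in either replicate.

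A wider loop enclosed both genes and was matched between the replicates. In replicate 1 it spanned 125 kb, from 35025001 to 35049999, an anchor with ends of Cebpg and Pepd, a peptidase gene, to 35150001 to 35174999, where no protein-coding gene ends. In replicate 2 it spanned 150 kb, from 35020001 to 35029999 to 35170001 to 35179999, so that each anchor midpoint lay 12.5 kb farther out. Measured from the start of Cebpa, the right anchor lay 30.7 to 55.7 kb downstream in replicate 1 and 50.7 to 60.7 kb downstream in replicate 2. A myeloid enhancer downstream of Cebpa is known in mouse, but no file here gives its position for a comparison. Noncoding genes in the right anchor were Gm35889 and Gm38988 in replicate 1 and Gm38988 in replicate 2.

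Replicate 2 also held a loop of 500 kb over both genes, from 34675001 to 34699999, inside the body of Chst8, a sulfotransferase gene, to 35175001 to 35199999, which held an end of the amino acid transporter gene Slc7a10. Its right anchor overlapped that of the 150 kb loop. Its left anchor overlapped an anchor of a further matched loop of 270 kb with its other end at 34400001 to 34409999. The loops around Cebpa and Cebpg were thus nested within 1 interval in replicate 2. Of the 70, 150 and 500 kb loops only the one of 150 kb was matched in replicate 1.

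Cebpb, at 167688915 to 167690432 on chromosome 2, had 1 loop in each replicate, and the pair matched. The replicate 1 loop spanned 200 kb, from 167675001 to 167699999, which held the gene, to 167875001 to 167899999. The replicate 2 loop spanned 210 kb, from 167680001 to 167684999 to 167890001 to 167894999, and was in the high-setting list. Its narrower left anchor ended 3.92 kb before the start of the gene, outside the 250 bases printed above. The right anchor lay 201 to 206 kb downstream of the start in replicate 2, within the 186 to 211 kb of replicate 1. It held no protein-coding gene in either replicate, and the noncoding gene Gm33033 in replicate 1 alone. In replicate 1 a second loop, of 100 kb and unmatched, shared the right anchor and ended at 167775001 to 167799999. No protein-coding gene other than Cebpb lay between the anchors in replicate 2, and none did in replicate 1.

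Cebpd, at 15887286 to 15889545 on chromosome 16, showed the same arrangement, with 1 matched loop per replicate and the gene at its left end. Both spanned 225 kb. The replicate 1 anchors were 15875001 to 15899999, with ends of Cebpd and of Spidr, a DNA repair scaffold gene, and 16100001 to 16124999. In replicate 2 they were 15880001 to 15884999, 2.29 kb from Cebpd, and 16105001 to 16109999. The right anchor lay within the body of Spidr in both replicates and held no protein-coding gene end, with the noncoding gene Gm18334 there in replicate 1, so this loop joined the Cebpd side of Spidr to the interior of that long gene. The files attach to each loop a value tagged qBL, which they do not define. It was 1.71e-08 in replicate 1 and 0.0504 in replicate 2, where it ranked at percentile 99.4 of the 986 loops on 5 kb anchors.

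Cebpe, at 54710363 to 54712174 on chromosome 14, had the shortest loops of the C/EBP genes that were matched. It was the only one of the 8 genes with a loop in the high-setting lists of both replicates. The other replicate 1 loops at the genes were on 25 kb anchors, which the high lists lack. In replicate 1 the loop of 70 kb ran from 54710001 to 54719999, which held the gene, to 54780001 to 54789999. In replicate 2 the loop of 65 kb ran from 54715001 to 54719999 to 54780001 to 54784999. The right anchor held ends of Slc7a8, an amino acid transporter gene, and of Rnf212b in both replicates. The replicate 2 anchor began 2.83 kb to the right of Cebpe, so in that list the gene lay beside the loop and not inside it. There were 36 other protein-coding genes within 500 kb of Cebpe, the most of the 8.

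Irf8, at 120736358 to 120756694 on chromosome 8, lay in the middle of its loop and not at an anchor. The replicate 1 loop, of 100 kb, had its anchors at 120675001 to 120699999 and 120775001 to 120799999. The matched replicate 2 loop, of 110 kb, had them at 120680001 to 120689999 and 120790001 to 120799999 and was in the high-setting list. Irf8 was the only protein-coding gene between the anchors, and neither anchor held the end of another. The anchors held the noncoding genes Gm39265 on the left and Gm33199 on the right in both replicates.

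From the Irf8 start the left anchor lay 46.4 to 56.4 kb upstream and the right one 53.6 to 63.6 kb downstream in replicate 2. Mouse Irf8 is known to have enhancers downstream of the gene, and their positions are likewise in none of the files. The distance from the gene body to the nearest anchor was 18.3 kb in replicate 1, just inside the 25 kb limit, and 33.3 kb in replicate 2, just outside it. A second replicate 2 loop, of 400 kb and unmatched, reached from the left side of Irf8 to 121075001 to 121099999, with ends of Foxf1, a forkhead factor gene, and Mthfsd. A further replicate 2 loop of 275 kb, starting 43.3 kb to the right of Irf8, ended at the same anchor.

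Klf4, at 55527137 to 55532475 on chromosome 4, had a loop in replicate 2 alone. It spanned 125 kb, from 55525001 to 55549999, which held the gene, to 55650001 to 55674999, where the annotation holds no gene of any kind. Klf4 lies on the minus strand, so the right anchor was 118 to 143 kb upstream of its start. Only 2 other protein-coding genes lay within 500 kb of Klf4, the fewest of the 8. The nearest replicate 1 anchor was 1677 kb away.

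Gfi1, at 107716655 to 107725805 on chromosome 5, had no anchor within 25 kb and lay in no loop. The nearest anchor was the same in both replicates, at 107775001 to 107799999, 49.2 kb to the right of the gene. From there a matched loop of 100 kb reached 107875001 to 107899999, which held an end of Evi5, a neighbour of Gfi1 known as a site of viral insertions in lymphomas. The loop thus lay wholly to one side of Gfi1.

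**Figure D2:**
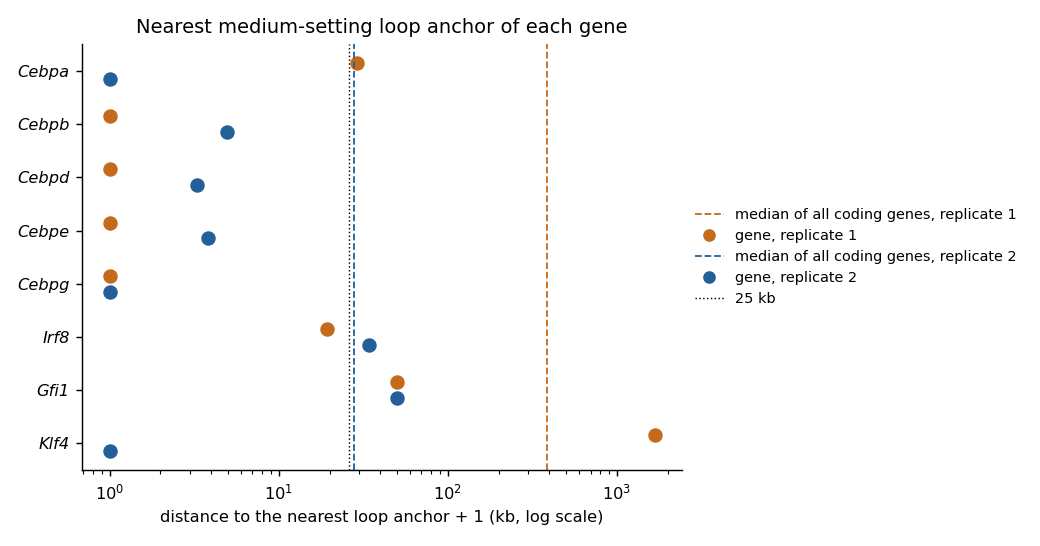
Distance from each gene body to the nearest medium-setting loop anchor, in kb plus 1 on a log scale, 1 point per gene and replicate. The dotted line marks 25 kb and the dashed lines the median over all protein-coding genes, 387 kb in replicate 1 and 27.1 kb in replicate 2; Klf4 lies beyond the replicate 1 median at 1677 kb.

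The nearest anchor was a median of 9.15 kb from the 8 genes in replicate 1, against 387 kb for all protein-coding genes. In replicate 2 it was a median of 2.56 kb from the 8 genes, against 27.1 kb for all. Within 500 kb of a gene there was a median of 2 loops for the 8 genes against 1 for all genes in replicate 1, and of 4.5 against 4 in replicate 2.

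The loops at these genes were of ordinary length. With an anchor within 25 kb they spanned 70 to 225 kb in replicate 1 with a median of 125 kb, against 150 kb for the whole list. In replicate 2 they spanned 65 to 225 kb with a median of 137.5 kb, against 150 kb. No loop anchored at one of the genes was longer than that, and the loops of 400 and 500 kb only passed over Irf8 and over Cebpa and Cebpg.

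**Figure D3:**
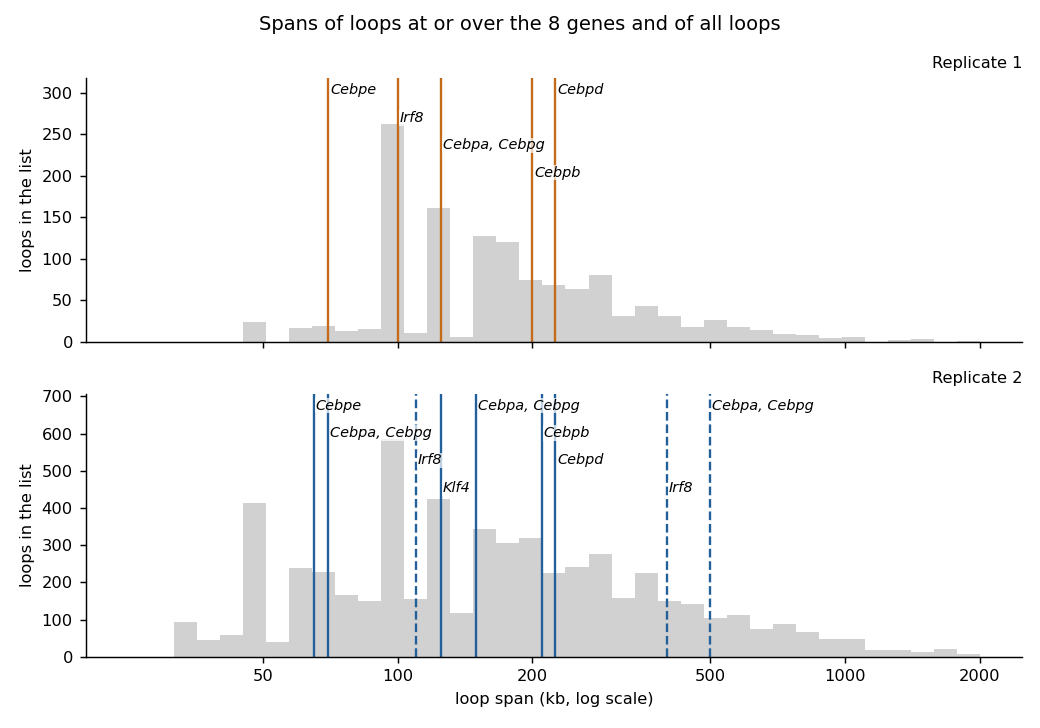
Loop spans in kb on a log scale for each replicate, with all medium-setting loops as grey bars and each loop at or over one of the 8 genes as a vertical line (solid where an anchor lies within 25 kb of a gene, dashed where the loop only spans it). The loops anchored at the genes lie between 65 and 225 kb, on both sides of the list median of 150 kb.

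The files give each loop a whole number tagged n, also undefined, and larger for wider anchors, so loops were ranked by n only among those of the same replicate and anchor width. The Cebpe loop ranked high in both replicates, at percentile 86.9 in replicate 1 and 96.8 in replicate 2. The Cebpd loop ranked at percentile 95.7 in replicate 1 but at 33.2 in replicate 2. The Irf8 loop ranked at 74.9 and 47.7, the Cebpb loop at 45.4 and 42.9, and the matched loop around Cebpa and Cebpg at 28.8 and 16.3, each with replicate 1 first. The unmatched loops of 500 kb over Cebpa and of 400 kb over Irf8 ranked at 1.33 and 0.211, near the bottom of the 25 kb loops of replicate 2. The other unmatched replicate 2 loops, which were anchored at the genes, ranked higher, at 71.7 for Klf4 and 56.1 for the 70 kb loop between Cebpa and Cebpg. These ranks take no account of span.

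No gene of the 8 lay in a called domain, against 5.51% of all protein-coding genes. With so low a share, the absence among 8 genes is near the background. Replicate 1 listed 3 domains and replicate 2 listed 339. Over the 8 genes the distance to the nearest replicate 2 domain ran from 1129 kb for Cebpb to 13801 kb for Cebpd. No such distance is given here for all genes.

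Genes whose loops were most like those of a member lay beside it or near the other end of its loops, which the measure requires. Likeness was the share of loops with an anchor within 25 kb of both genes among those within 25 kb of either, over both replicates. It was 1 for Tmem189 with Cebpb (2 of 2 loops), for Mzt2 and Spidr with Cebpd (2 of 2), and for Slc7a8, 1700123O20Rik and Gm29776 with Cebpe (2 of 2). Pepd shared all 3 loops of Cebpg. Cebpa and Cebpg shared 1 of 3 loops, a likeness of 0.33, and Cebpa and Gm45095 shared 1 of 2. Irf8 had 1 loop in common out of 3 with Cox4i1, Emc8 and Gm27021.

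Further genes were taken from 5 lists with 79 genes in all, including a list of 12 transcription factors of lymphoid and erythroid lineages. An anchor lay within 25 kb of 57 of the 79, or 72.2%, against 49.9% of all protein-coding genes. A matched loop was found at 21, or 26.6%, against 13.7%. Relatives and partners of C/EBP proteins had an anchor in 11 of 15 cases and a matched loop in 3. Jun, a basic leucine zipper gene of the AP-1 factor, had a matched loop of 50 kb with its own end in the anchor. Fos, its AP-1 partner, had one of 100 kb, and Batf, also a leucine zipper gene, one of 150 kb.

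Other transcription factors of monocytes and granulocytes had an anchor in 18 of 21 cases, or 85.7%, and a matched loop in 8, or 38.1%. The shares over all protein-coding genes were 49.9% and 13.7%. Irf1, an interferon regulatory factor gene like Irf8, lay 10.0 kb from an anchor of a matched loop of 100 kb. Zeb2 and Egr2, zinc finger genes of the monocyte lineage, had their own ends in anchors of matched loops of 150 and 175 kb. Zbtb46, known as a dendritic cell factor gene, lay 21.0 kb from an anchor of a 150 kb loop.

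Genes made in granulocytes had an anchor in 11 of 18 cases, or 61.1%, and a matched loop in 3, or 16.7%. The 3 were Itgam, the CD11b gene, joined over 100 kb to an anchor with ends of Itgad and Cox6a2, Mmp9, a gelatinase gene, over 100 kb, and Mmp8, a collagenase gene, over 380 kb. Genes of monocytes and dendritic cells had an anchor in 8 of 13 cases and a matched loop in 5, among them Cst3 and Cx3cr1 with loops of 50 kb and Clec9a with one of 80 kb. Itgax, the CD11c gene, lay 4.53 kb from an anchor of the same 100 kb replicate 1 loop as Itgam, but had no replicate 2 anchor within 25 kb. Transcription factors of lymphoid and erythroid cells had an anchor in 9 of 12 cases, or 75.0%, and a matched loop in 2, or 16.7%. These were Pax5, a B cell factor gene, with a loop of 350 kb, and Gata1, an erythroid factor gene. Gata1 lay 23.3 kb from an anchor of a 100 kb replicate 1 loop, and no replicate 2 loop had an anchor within 25 kb of it. Tal1, the next by the naming rule, had a single 50 kb loop in replicate 2. Without any matching on gene length, the share with any loop was above that of all protein-coding genes in lists of each lineage, the lymphoid and erythroid one included.

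**Figure D4:**
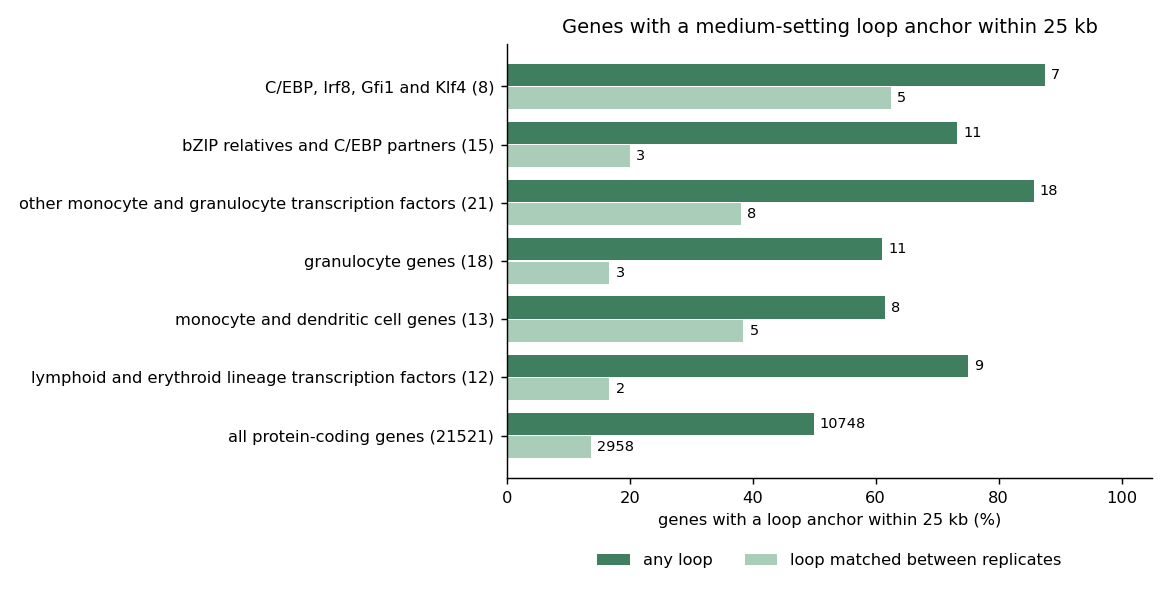
Percent of genes with a medium-setting loop anchor within 25 kb (dark bars) and with such an anchor of a loop matched between the replicates (light bars), with the count beside each bar and the number of genes in brackets. The 8 genes had 87.5 and 62.5%, the 5 lists 61.1 to 85.7% and 16.7 to 38.5%, and all protein-coding genes 49.9 and 13.7%.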

How the data were processed

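Hi-C was run on 2 samples of HPC5 with an Arima kit, per the labels' protocols. Per the submitters' processing notes, the mm10 build and HiC-Pro 2.11.1 were used. Which programs called the loops and the domains was not given in the sources used here. Loops were deposited by the authors for each replicate separately, as anchor pairs with values tagged n and qBL, which the files do not define. Domains were deposited on bins of 5000 bp. No depth, count or contact matrix was used here. Domain starts, which count from 0 in the files, were raised by one base, and loop coordinates are unchanged.

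Gene positions were those of RefSeq for GRCm38.p6, which is the same assembly as mm10, on chromosomes 1 to 19 and X, without scaffold genes. The table has no strand. Strands came from the RefSeq promoter table, which held 6 of the 8 genes. Python 3.11.15 with numpy 2.4.6 did the counting, which was tested on simulated loops. The members and gene lists were chosen with earlier results of these data known, so counts are set beside those over all genes with no test. Genes named are the 8 members, up to 3 genes of likeness 0.25 or more per member, genes with ends in the anchors, and up to 4 per list by matched loop and span, filled to 3. Evi5 and Chst8 were named after their values were seen. The motifs were chosen after the promoters were seen. Alternatives were windows of 0, 10 and 50 kb, the high setting, gene ends, each replicate alone, other matching rules, loops under 500 kb, and all annotated genes as background. Genes of at most 25 kb were added after seeing the data.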

Additional observations from a re-analysis of the deposited data

How the results depend on the processing

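With 8 genes, 2 replicates and lists of unequal length, the counts describe these lists and carry no test. Members with an anchor within 25 kb numbered 7, and 5 to 8 under the alternatives, with 8 at 50 kb, where the loop beside Gfi1 came in. Members inside a span numbered 5 to 7. Members with a matched loop numbered 5, and 4 to 7 under the other alternatives, but 1, Cebpe, under the high setting. There replicate 1 listed 202 loops, since its 1074 loops on 25 kb anchors are absent. For matched loops no share of all protein-coding genes is given here under these alternatives, so those counts lack a background. Loops at members numbered 11, against 6 under the high setting and 6 with the anchor on the gene body, and 5 to 6 when either replicate was left out. Their median span was 125 kb, against 110 kb under the high setting and 125 to 137.5 kb when a replicate was left out. Genes of the 5 lists with an anchor numbered 57, against 30 with the anchor on the gene body, where the share of all protein-coding genes also fell. They numbered 26 to 53 when a replicate was left out. The share of genes with an anchor was 39.3% over all annotated genes, against 49.9% over protein-coding ones. No paired analysis was possible because there is 1 group. Depth is unknown.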
